A study of Mus musculus with 4 samples.

Results

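The Ms4a genes form a cluster on mouse chromosome 19 whose last gene is Ms4a3, the gene named in the genotype label of these lineage-tracing mice. Chromatin accessibility across 10 of these genes (Ms4a1, Ms4a2, Ms4a3, Ms4a4a, Ms4a4b, Ms4a4c, Ms4a6b, Ms4a6c, Ms4a6d and Ms4a7) was taken from the merged ATAC-seq peaks of the series. A peak was given to a gene if its centre lay inside the gene or if that gene was the nearest protein-coding one within 100 kb. This rule gave 35 of the 74695 merged peaks to the 10 genes. Coordinates are those of the mm10 build.

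The cells were sorted brain parenchymal macrophages, profiled by ATAC-seq, in which the Tn5 transposase cuts and tags open chromatin. The 4 libraries were MDM1 and MDM2, and YSM1 and YSM2, that is 2 groups of 2 libraries. From the title, MDM stands for monocyte-derived macrophages, while no label says what YSM means. The genotype label Ms4a3-Ai9 and the treatment label DR-3x, whose meaning is not stated, were common to both groups. The sources used here give neither age nor sex, do not say how many animals made up a library or whether libraries came from separate animals, and do not describe the Ms4a3 allele.

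MS4A proteins are small proteins that cross the membrane several times, and many of them are made in a single branch of the blood cell tree. Ms4a1 encodes CD20 of B cells, Ms4a2 the beta chain of the high-affinity IgE receptor of mast cells and basophils, and Ms4a3 a protein of granulocyte and monocyte progenitors. In Ms4a3 lineage-tracing mice, Cre recombinase made from the Ms4a3 locus in those progenitors switches on the Ai9 red fluorescent reporter for good, so that monocytes and their offspring keep the colour after Ms4a3 itself has been turned off. Ms4a7 and the Ms4a4 and Ms4a6 genes include several that macrophages and monocytes express.

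No peak was given to Ms4a3, whereas the other 9 genes were given between 1 and 8 peaks each. The peaks of Ms4a2 and Ms4a6b all lay outside the gene, so no peak overlapped those genes either. Among all protein-coding genes, 69.8% had a peak. Ms4a7 and Ms4a4a had 8 each, and a peak spanned the annotated transcription start of both. At least 8 peaks were given to 11.8% of all protein-coding genes, and the median of genes with a peak was 3. Each merged peak carries the number of library-level peaks combined into it (subpeaks): a peak of 3 or fewer had no call in at least 1 of the 4 libraries, and a peak of 4 or more may have been called in all of them, which the number alone does not show. No peak of the 10 genes was in the authors' list of MDM peaks (0 of 35, against 0.145% of all merged peaks) or in their list of YSM peaks (0 of 35, against 1.48%). The deposited intervals hold no value per library, so no level, replicate spread or test of MDM against YSM can be given for any of these peaks. In such bulk samples, a site open in few cells and a site less open in every cell cannot be told apart.

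The 250 bases before the start of Ms4a7 and Ms4a4a are shown because a merged peak reached into them. They are RefSeq sequences of GRCm38.p6 from chr19:11336147-11336396 on the minus strand for Ms4a7 and chr19:11375238-11375487 on the plus strand for Ms4a4a. Both are written 5′ to 3′ toward the gene, and capitals mark the bases inside the peak, 137 of 250 for Ms4a7 and 115 of 250 for Ms4a4a.
Ms4a7: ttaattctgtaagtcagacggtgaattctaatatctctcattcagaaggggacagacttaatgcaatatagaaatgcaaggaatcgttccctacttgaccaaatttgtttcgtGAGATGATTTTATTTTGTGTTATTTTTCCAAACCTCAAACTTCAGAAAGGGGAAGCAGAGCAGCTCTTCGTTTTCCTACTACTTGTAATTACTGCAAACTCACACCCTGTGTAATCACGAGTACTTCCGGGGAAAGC
Ms4a4a: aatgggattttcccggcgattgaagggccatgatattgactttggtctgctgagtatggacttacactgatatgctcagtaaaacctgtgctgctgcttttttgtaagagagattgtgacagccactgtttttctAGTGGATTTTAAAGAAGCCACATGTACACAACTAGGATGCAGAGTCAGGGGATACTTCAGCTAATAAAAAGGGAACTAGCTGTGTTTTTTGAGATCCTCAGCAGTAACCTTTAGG

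The same stretch of Ms4a3 (chr19:11640852-11641101, minus strand) is shown because no peak lay in it. Capitals mark the letters GGAA or their reverse complement TTCC, the core that ETS factors such as PU.1 recognise.
Ms4a3: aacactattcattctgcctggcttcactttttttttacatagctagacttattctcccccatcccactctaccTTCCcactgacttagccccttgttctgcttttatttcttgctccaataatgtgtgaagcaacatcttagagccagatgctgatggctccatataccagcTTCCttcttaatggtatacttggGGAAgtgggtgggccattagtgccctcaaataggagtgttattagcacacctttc

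The stretches of Ms4a6c (chr19:11469118-11469367, plus strand) and Ms4a6b (chr19:11518309-11518558, plus strand) are shown as a pair of copies. Capitals mark the longest run of bases that they share, 48 bases.
Ms4a6c: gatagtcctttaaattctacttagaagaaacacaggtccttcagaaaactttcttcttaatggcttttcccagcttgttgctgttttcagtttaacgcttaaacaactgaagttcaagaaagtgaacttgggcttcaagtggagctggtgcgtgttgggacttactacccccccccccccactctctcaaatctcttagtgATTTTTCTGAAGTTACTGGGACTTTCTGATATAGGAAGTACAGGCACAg
Ms4a6b: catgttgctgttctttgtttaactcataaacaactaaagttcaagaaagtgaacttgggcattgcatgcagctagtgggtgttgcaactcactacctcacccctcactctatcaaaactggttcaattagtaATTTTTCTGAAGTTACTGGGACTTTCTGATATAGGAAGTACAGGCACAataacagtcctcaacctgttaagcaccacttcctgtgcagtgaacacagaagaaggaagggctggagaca

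**Figure D1:**
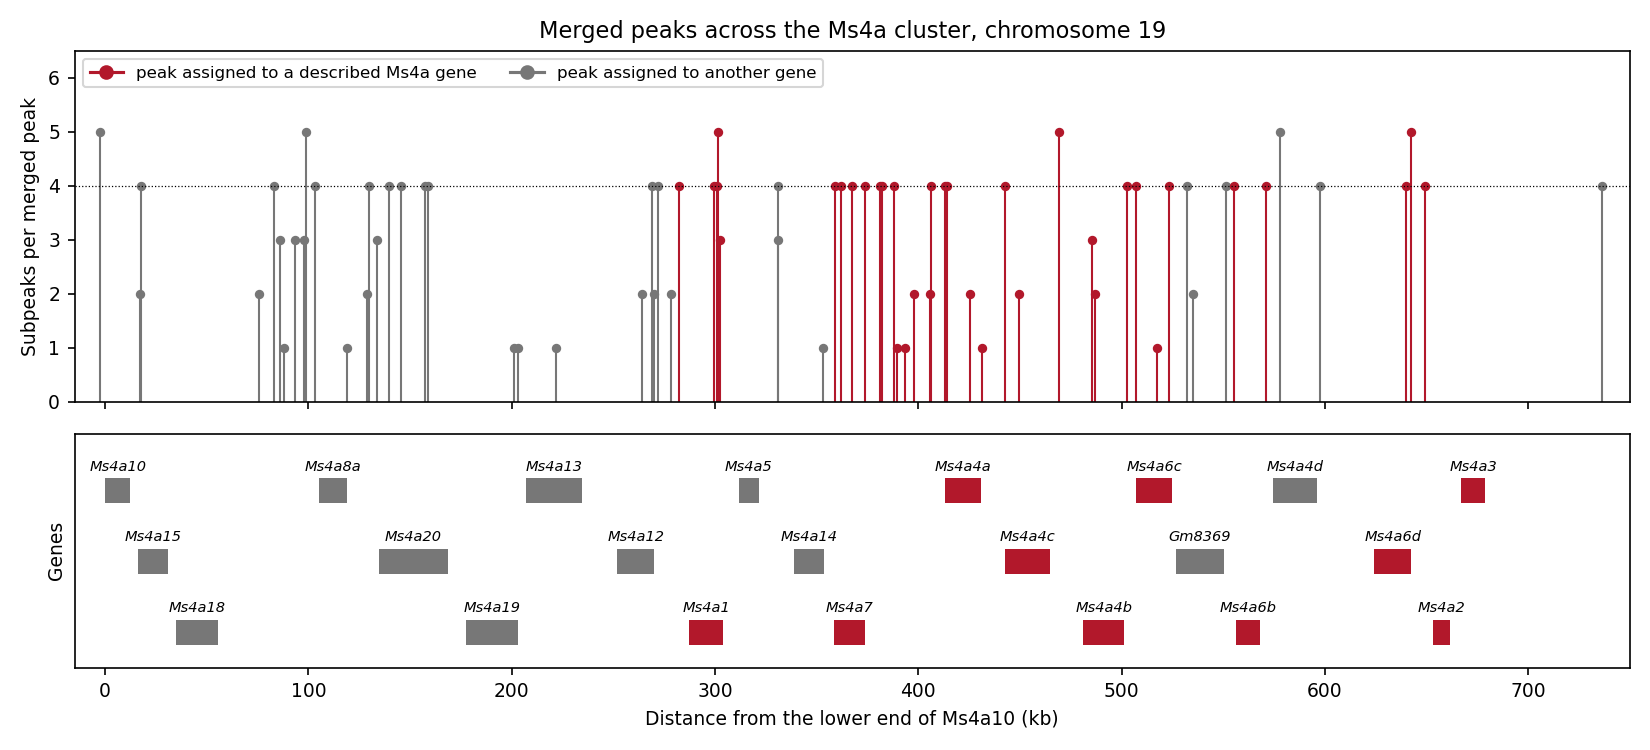
Merged peaks (upper panel, number of subpeaks per peak) above the protein-coding genes (lower panel), by distance in kb from the lower end of Ms4a10. Peaks and genes of the 10 described Ms4a genes are red and the others grey, the dotted line marks 4 subpeaks, and the stretch at Ms4a2 and Ms4a3 on the right holds no peak.

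Read along the chromosome, the 10 genes fell into 3 stretches. From Ms4a1 to Ms4a14 (66.2 kb) there were 7 merged peaks, of which 4 had 4 or more subpeaks. From Ms4a7 to Ms4a6d (283.8 kb) there were 34 (Ms4a4d and Gm8369 included), of which 23 had 4 or more. From Ms4a2 to Ms4a3 (25.3 kb) there were 0. The lower part of the cluster, from Ms4a10 to Ms4a12, held 23 peaks, or 8.51 per 100 kb. The stretch from Ms4a1 to Ms4a14 had 10.6 per 100 kb, that from Ms4a7 to Ms4a6d 11.98, and the whole cluster, from Ms4a10 to Ms4a3, 10.2. Chromosome 19 between its first and last merged peak had 4.06 peaks per 100 kb and all assembled chromosomes together 2.81. From Ms4a10 to Ms4a6d each stretch was thus denser in peaks than chromosome 19 as a whole, and the stretch from Ms4a2 to Ms4a3 held none. At 25.3 kb that last stretch is short beside 4.06 peaks per 100 kb, so its 0 does not show a lower density. The peak given to Ms4a2 lay between Ms4a6d and Ms4a2 and fell in no stretch. Just outside the rule, the peak at chr19:11240542-11240743 (2 subpeaks) went to Ms4a12 at 8160 bp, with Ms4a1 9037 bp away.

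**Figure D2:**
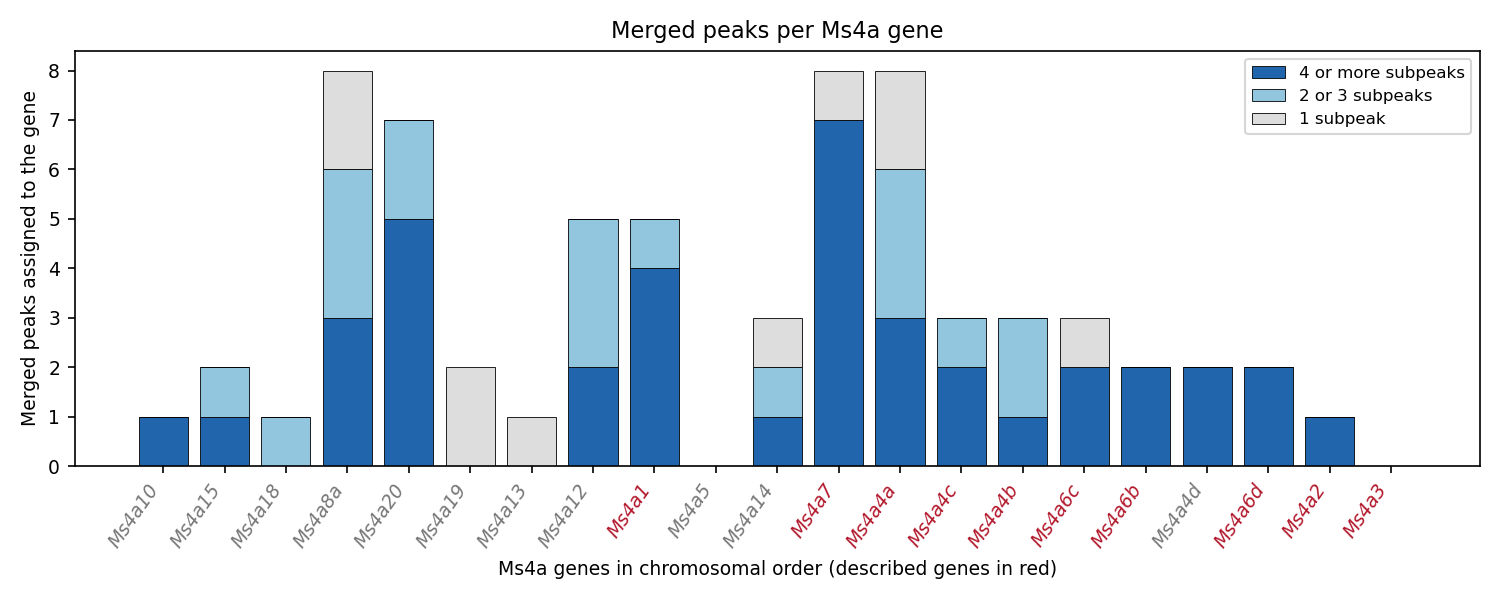
Number of merged peaks given to each Ms4a gene of chromosome 19 in chromosomal order, split by number of subpeaks, with the names of the 10 described genes in red. Ms4a7 and Ms4a4a reach 8 peaks, as does Ms4a8a, with 7 peaks of Ms4a7 and 3 of Ms4a4a at 4 or more subpeaks, and Ms4a3 has none.

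Ms4a3 (NCBI gene 170813, chr19:11629499-11640851) lay inside the widest gap that reached into the cluster, a gap that ran on past the cluster's end. No merged peak was called over 86.5 kb between 11611852 and 11698381, and 95.1% of the gaps between neighbouring merged peaks were shorter (median 7.42 kb). That share counts gaps, and long gaps take in more genes, so it does not show how rarely a gene lies in such a gap. The gap around Ms4a3 also held the whole of Ms4a2 and of Oosp2 and Oosp1, oocyte-secreted protein genes. The widest gap wholly within the cluster was another, 57.8 kb between 10979994 and 11037764, and it held the whole of Ms4a18. The peak nearest to Ms4a3 had its centre 17781 bp from the gene and 29133 bp downstream of its start at 11640851. Of 21887 protein-coding genes, 30.2% likewise had no peak given to them, so this was common in these cells. Each peak went to 1 gene only, so such a gene can still have a peak at its start, as Tmem176a did in 1 promoter window.

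Ms4a2 (chr19:11615517-11623790) had 1 peak, at chr19:11611584-11611852, which had 4 subpeaks. It lay outside the gene, 3799 bp from it, on the side of Ms4a6d and 12001 bp downstream of the annotated Ms4a2 start. Ms4a6d was 6914 bp from the same peak, so this peak was given to Ms4a2 by distance alone. No peak overlapped the gene itself. The mast cell gene and the progenitor gene were therefore both without a peak in the gene or at its start.

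Markers of those cell types and of others were read against all protein-coding genes, of which 69.8% had a peak and 52.7% of those with a promoter window had a peak in it. Of the mast cell and basophil markers Cpa3, Fcer1a, Mcpt8 and Cma1, 1 of 4 (Cpa3, 2 peaks of 2 subpeaks outside the gene) had a merged peak. Among the neutrophil and progenitor markers S100a8, S100a9, Ly6g, Elane, Prtn3 and Mpo, 2 of 6 had a peak: Prtn3 had 4, 3 of them with 4 or more subpeaks, and Elane had 1. None of these 10 genes had a peak in the promoter window. All 10 macrophage markers had peaks, from 2 at Fcer1g and C1qa to 16 at the leukocyte gene Ptprc, and 4 of the 6 with a promoter window had a peak in it. All 4 microglia markers had peaks, and 2 of the 2 with a promoter window had a peak in it. The 12 peaks of the microglia gene Sall1 had 3 or fewer subpeaks each, and 7 of them were in the YSM list. All 4 monocyte markers had peaks too, with 1 of 4 holding one in the promoter window. Markers of other brain cells had peaks in 2 of 3 neuron, 2 of 2 astrocyte, 1 of 2 oligodendrocyte and 2 of 2 endothelial genes, with 0 in a promoter window. Some of these peaks were remote: the only ones of Aqp4 and Cldn5 lay 97643 and 43486 bp away. The 2 peaks of Snap25 lay outside the gene, up to 34582 bp away. Rbfox3, Gfap, Mog and Pecam1 had peaks inside the gene. A peak given to a gene therefore did not by itself mark a cell type, and the part of other cells in the peaks of the Ms4a genes was not tested.

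Ms4a1 (chr19:11249679-11266149) had 5 peaks, 4 of them with their centres inside the gene. These 4 lay close together at chr19:11261490-11261717, chr19:11263078-11263418, chr19:11263545-11263916 and chr19:11264821-11265056, with 4, 4, 5 and 3 subpeaks. Their centres were 1211 to 4546 bp from the higher end of the gene, and none lay within 1 kb of either end. With peaks within 1 kb of each other counted as 1 site, the 5 peaks were 3 sites. The remaining peak, at chr19:11244398-11244612, lay 5174 bp outside and had 4 subpeaks. The CD20 gene was thus open at several places inside, with no peak at either end.

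All 5 Ms4a1 peaks also overlapped 4930526L06Rik, a long non-coding RNA gene that RefSeq places across the whole of Ms4a1, and the peaks cannot be split between the overlapping genes. The B cell marker Pax5 had 2 peaks, with 4 and 3 subpeaks, and the B cell markers Cd79a and Cd79b had 0. None of Pax5, Cd79a and Cd79b had a peak with 4 or more subpeaks within 1 kb of a gene end. Whether B cells in the sort contributed to the peaks at Ms4a1 was not tested.

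Ms4a7 (NCBI gene 109225, chr19:11321039-11336146, minus strand) had more peaks with 4 or more subpeaks than any other of the 10 genes, 7 of 8. Ms4a7 is known as a gene of border-associated and monocyte-derived macrophages in the brain, where microglia make little of it. One peak, chr19:11335972-11336283, spanned the start at 11336146, with its centre 19 bp downstream. Of the other peaks inside, 1 was at the far end of the gene (chr19:11321167-11321419) and the remaining ones were at chr19:11324136-11324457 and chr19:11329479-11329715. A second annotated start, at 11334695, had no peak in its promoter window, and the nearest peak lay 1277 bp away.

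Upstream of Ms4a7 a row of 4 further peaks ran into the space before Ms4a4a. They were at chr19:11343130-11343473, chr19:11344135-11344362, chr19:11350156-11350372 and chr19:11351897-11352097, between 7155 and 15851 bp from the gene. The first 3 had 4 subpeaks, and the last had 1. The peaks inside Ms4a7 and the nearer upstream ones were thus all called with 4 subpeaks, and the single-call peak was the farthest from the gene.

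Ms4a4a (NCBI gene 666907, chr19:11375488-11392915, plus strand), a gene of tissue macrophages whose protein in mouse and human partners with the fungal receptor Dectin-1, had 8 peaks of more mixed support. Its start at 11375488 was spanned by chr19:11375373-11375641, whose centre lay 19 bp downstream and which had 4 subpeaks. A second peak of 4 subpeaks followed at chr19:11376484-11376753, with its centre 1130 bp downstream. Another of 4 subpeaks, at chr19:11368290-11368544, lay 7071 bp upstream. The other 5 had 1 or 2 subpeaks, so that at least 2 of the 4 libraries lacked a call at each.

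Those 5 lay at 7535, 15080 and 19524 bp upstream of the gene, 12377 bp downstream of the start within it, and 547 bp beyond its far end. The peak at 19524 bp (chr19:11355864-11356064, 1 subpeak) was the farthest of all 35 and only just belonged to Ms4a4a, since Ms4a7 was 19818 bp from it. The interval between Ms4a7 and Ms4a4a held 8 peaks in all, 4 given to each gene. Ms4a7 and Ms4a4a are read in opposite directions away from this interval.

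**Figure D3:**
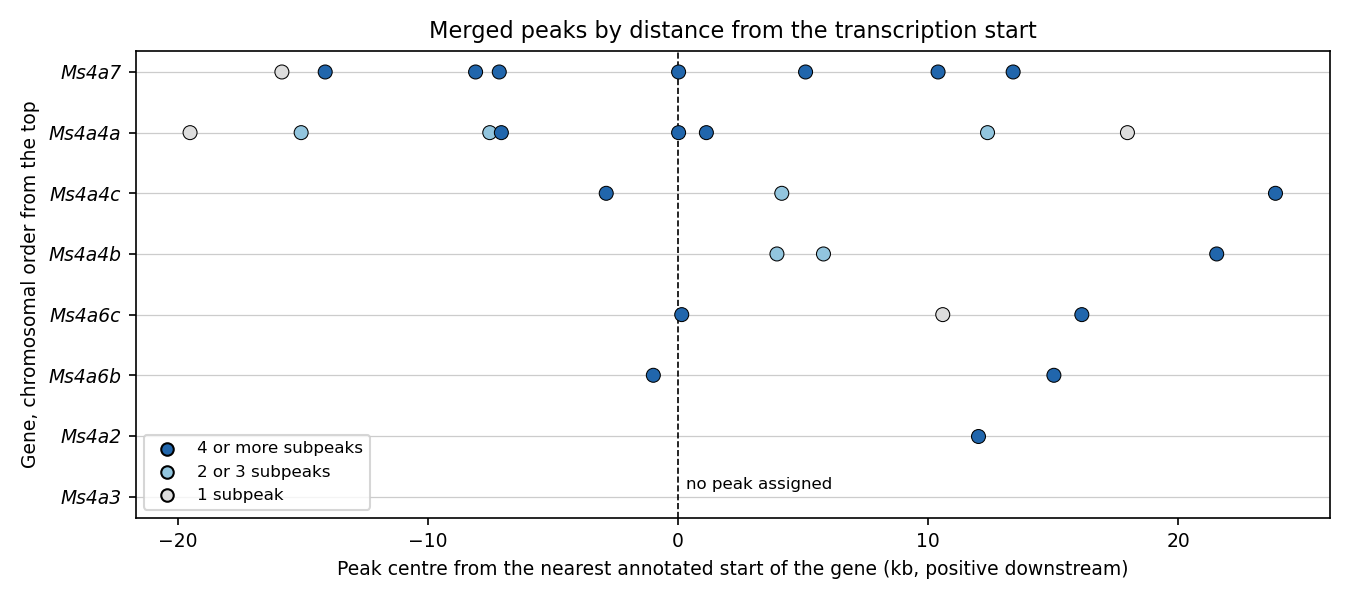
Centres of merged peaks by distance in kb from the nearest annotated start of the gene, positive downstream, for the 8 genes with a start in the promoter table, coloured by number of subpeaks. Peaks sit at the start of Ms4a7, Ms4a4a and Ms4a6c, the Ms4a6b peak lies 992 bp upstream, and Ms4a3 has no peak.

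Ms4a4c (chr19:11404717-11427246, plus strand), which interferon induces in mouse myeloid cells, had 3 peaks. Of these, chr19:11404668-11404903, with 4 subpeaks, covered the lower end of the annotated gene, where it also overlapped the pseudogene Gm5692. The start given in the promoter table was another, at 11407661, and the nearest peak ended 2758 bp upstream of it. The others were at chr19:11411706-11411908, inside the gene with 2 subpeaks, and at chr19:11431341-11431774, 4311 bp beyond it with 5 subpeaks and, at 434 bp, the widest of the 35.

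Ms4a4b (chr19:11443558-11463549, plus strand), a T cell gene in the mouse, was its neighbour and had peaks of fewer subpeaks. Inside the gene lay chr19:11447403-11447620 with 3 subpeaks and chr19:11449264-11449481 with 2, 3953 and 5814 bp downstream of the start. Its 1 peak with 4 subpeaks lay 1554 bp beyond the far end, at chr19:11464996-11465211. No peak lay within 1 kb of either end. Of the T and NK cell markers Cd3e, Cd3g, Cd3d and Nkg7, 2 of 4 had a peak and 0 of 4 had one in the promoter window, while Cd3d had 1 peak of 4 subpeaks within 1 kb of its end. The part of T cells in the Ms4a4b peaks was not tested.

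Ms4a6c (chr19:11469353-11487182, plus strand), a gene known from mouse monocytes and macrophages, had 3 peaks, all inside it. The peak at chr19:11469398-11469626, with 4 subpeaks, began 30 bp downstream of the start at 11469368. Near the other end lay chr19:11485385-11485650, also with 4 subpeaks. Between them, chr19:11479854-11480054 had 1 subpeak and overlapped the long non-coding RNA gene BE692007. The gene was thus open at its start and near its end.

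Ms4a6b (chr19:11518559-11530403, plus strand) had 2 peaks of 4 subpeaks, both outside the gene. The peak at chr19:11517399-11517735 had its centre 992 bp upstream of the start and counted as being at the gene's end, while 0 bases of it reached the promoter window. The peak at chr19:11533452-11533730 lay 3188 bp beyond the gene and 3203 bp from Ms4a4d, so that 15 bp decided its assignment. The 48 bases shared with Ms4a6c lay outside the peaks of both genes.

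Ms4a6d (chr19:11586606-11604804), whose protein in mouse macrophages joins the complement receptor VSIG4, had 2 peaks inside it. One of them, chr19:11604552-11604951, with 5 subpeaks, covered the higher end of the gene, and chr19:11602023-11602287, with 4, lay 2649 bp from that end. A gap of 42.1 kb without a merged peak preceded them and took in most of the gene. Ms4a1 and Ms4a6d have no entry in the promoter table.

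A peak with 4 or more subpeaks within 1 kb of a gene end was found at 6 of the 10 genes: Ms4a7, Ms4a4a, Ms4a4c, Ms4a6c, Ms4a6b and Ms4a6d. Among all protein-coding genes, 45.4% had one. The 4 genes without were Ms4a1, Ms4a4b, Ms4a2 and Ms4a3, known from B cells, T cells, mast cells and progenitors. Among the markers, such a peak was found at 8 of 10 macrophage, 2 of 4 microglia, 1 of 4 monocyte and 1 of 4 T and NK cell genes. It was found at 1 of 6 neutrophil and progenitor and 0 of 4 mast cell and basophil genes, and at none of Pax5, Cd79a and Cd79b. Of the markers of other brain cells, 1 of 2 oligodendrocyte, 0 of 3 neuron, 0 of 2 astrocyte and 0 of 2 endothelial genes had one. Such a peak thus did not by itself mark a cell type. A peak in the promoter window, from 250 bases before to 50 after an annotated start, was found at 3 of the 8 genes with such a window, against 52.7% of 17492 protein-coding genes. These were Ms4a7, Ms4a4a and, with 20 bases of overlap, Ms4a6c.

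The subpeak numbers and places of the 35 peaks were set beside those of all merged peaks. Of the 35, 24 (68.6%, 95% exact binomial interval 50.7 to 83.1%) had 4 or more subpeaks, against 57.7% of all merged peaks, and the median was 4 in both. Of the 35, 8 (22.9%, interval 10.4 to 40.1%) lay within 1 kb of a gene end, against 22.1% of all merged peaks with an assigned gene. The intervals treat each peak as independent, cover counting error only and hold the share of all merged peaks in both cases. Widths ran from 201 to 434 bp, with a median of 236 bp, which was also the median of all merged peaks. No Ms4a peak combined more than 5 subpeaks, whereas the highest number in the merged list was 12.

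**Figure D4:**
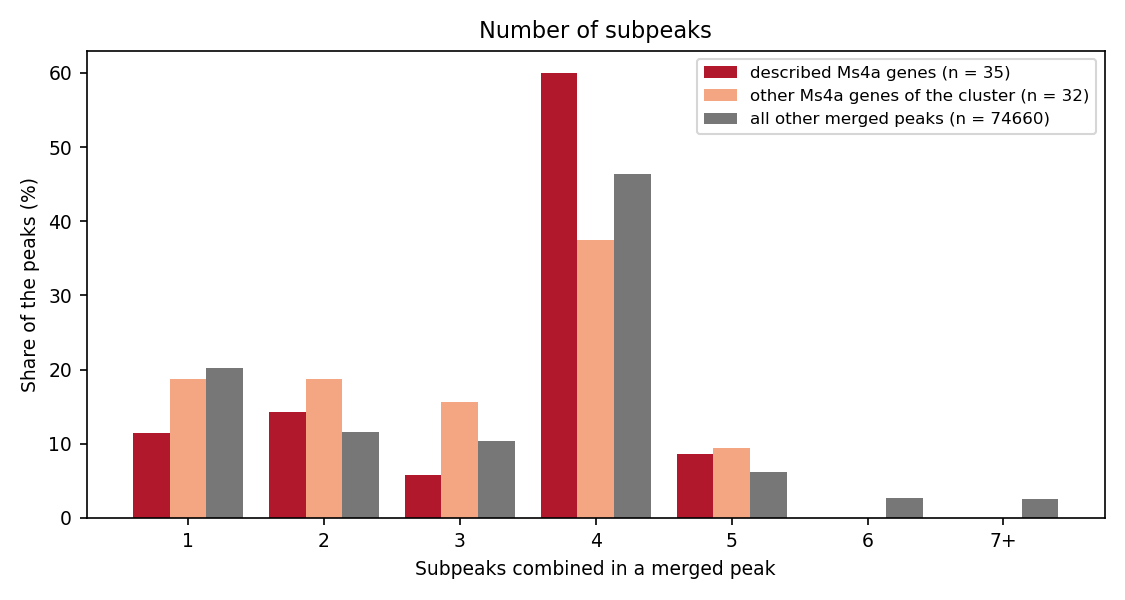
Share of merged peaks (%) by number of subpeaks for the 35 peaks of the described Ms4a genes, the 32 peaks of the other Ms4a genes of the cluster and the 74660 remaining merged peaks outside the described genes. In each set 4 subpeaks was the most frequent number, held by 21 of the described genes' peaks, and no Ms4a peak had more than 5.

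The authors' lists of differential peaks left out the whole cluster. The MDM list held 0.145% of all merged peaks and the YSM list 1.48%, so both lists are small beside the merged peaks. A count of 0 of 35 allows a share of up to 8.57%, taken as 3 in 35, an approximate limit and not an exact interval. This limit is above both background shares, and a difference from the background was therefore not detectable with this number of peaks. The nearest MDM-listed peak of chromosome 19 lay 22.6 Mb beyond the cluster, at chr19:34270321-34270548, and the nearest YSM-listed peak 4.24 Mb beyond it, at chr19:15883118-15883345. Chromosome 19 carried 2 MDM-listed and 19 YSM-listed peaks in all. No source used here states the thresholds behind the lists, and absence from them does not show that MDM and YSM libraries were alike at Ms4a7 or at any other of these genes.

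The other members of the family in the cluster had peaks of fewer subpeaks by the median, which was not tested. Of the 11 further Ms4a genes on chromosome 19, 10 had a peak, against 69.8% of all protein-coding genes, and Ms4a5 had none. Their 32 peaks had a median of 3 subpeaks, and 15 (46.9%, exact interval 29.1 to 65.3%) had 4 or more, an interval that overlaps that of the 10 described genes. Ms4a8a and Ms4a20 had the most, with 8 and 7 peaks, whereas Ms4a19 and Ms4a13 had only peaks of 1 subpeak. None of the 11 had a listed peak. The relatives Tmem176a and Tmem176b lie on chromosome 6 and overlap each other. Tmem176b was given 9 peaks, 7 with 4 or more subpeaks, and 6 of the 9 lay outside the gene. No peak overlapped the body of Tmem176a.

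Gene neighbours outside the family differed between the ends of the cluster. On the lower side, Tmem109, Prpf19, Zp1, Ptgdr2 and Ccdc86 each had between 2 and 4 peaks, all of them in the gene or at its ends. On the higher side, beyond Ms4a3, Oosp2 and Oosp1 had 0, Oosp3 and Mrpl16 had 1 each and Cblif had 2. The closed stretch at Ms4a3 thus went on past the cluster on that side. Inside the cluster, the 1 gene outside the listed family, Gm8369 between Ms4a6c and Ms4a6b, had 3 peaks, 2 of them with 4 subpeaks.

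Copies within the cluster also resemble each other at their starts. Of 170 pairs of promoter windows of different Ms4a genes, 2 gave a local alignment of 50 or more columns. Ms4a4c and Ms4a4b were identical at 159 of 178 columns (89.3%), and Ms4a6c and Ms4a6b at 193 of 234 (82.5%). In the pair Ms4a4c and Ms4a4b neither window held a peak, and in the other pair Ms4a6c alone did. The sources used here do not say how reads that fit more than 1 copy were placed, and the peaks of these 4 genes are uncertain to that extent.

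Words recognised by macrophage and lymphocyte factors were sought on both strands of the promoter windows. The ETS core GGAA was in the windows of all 8 genes, as in 96.4% of protein-coding genes with a window. A word of the form TTNNGNAA, close to what C/EBP factors bind, was in 7 of 8, all but Ms4a2, against 41.4% of genes. In the last 150 bases of the window, from 100 before to 50 after the start, it was in 4 of 8, against 20.3% of genes. The long PU.1 word GAGGAAGT, the IRF word (GAAA, any 2 bases, GAAA) and the MEF2 word (CTA, any 4 bases, TAG) were in 0 of 8, against 3.64%, 3.94% and 4.01% of genes. A shorter PU.1 word, AGGAAGT, was added after the sequences had been seen. It was in 2 of 8, Ms4a6b and Ms4a6c, with a copy inside the run of 48 shared bases, and in 10.4% of genes. The AP-1 word TGANTCA was in 2 of 8 (Ms4a4b and Ms4a7) against 8.12%, the RUNX word TGTGGT in 1 of 8 (Ms4a4c) against 17.2%, and the E-box CANNTG in 5 of 8 against 72.1%. In Ms4a7 the AP-1 word and the E-boxes lay only in the window of the second start, at 11334695, which held no peak. In the last 150 bases of the window the E-box was in 2 of 8, against 47.3%, and the RUNX word in 0 of 8, against 9.03%. A match is letters in a window and shows no binding, and with 8 genes, 2 pairs of copies among them, the shares carry little precision.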

How the data were processed

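ATAC-seq of sorted brain parenchymal macrophages gave 4 libraries, 2 labelled MDM and 2 labelled YSM. Per the submitters' processing notes, which state no settings, the tools were HOMER, Picard, Bowtie2 2.2.5 and Trimmomatic 0.39, and the build was mm10. Per the file headers, HOMER mergePeaks joined 4 peak files, 1 for each library. The sources used here do not state Tn5 shifts, read filters or depth. The deposited tables are intervals without a count or other value per library: the merged peaks and 2 lists of differential peaks (108 MDM, 1104 YSM), named for DESeq2. All listed peaks matched a merged interval exactly.

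The subpeak number was read from the end of each peak name. All 15127 peaks with 1 subpeak were 201 bp wide and 0 peaks were wider than their subpeaks times that width. Coordinates are 1-based, in mm10. Gene limits, starts and promoter windows came from RefSeq tables of GRCm38.p6 (mm10 is the same assembly without its patches), and exons and introns could not be told apart. Peaks went to genes by their centres, ties to the shorter gene. A gene's end means within 1000 bp of either limit. Assignment, site merging and word search were tested on simulated data. Alignments used Biopython 1.88 and exact intervals scipy 1.17.1 (Python 3.11.15).

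The genes, gene lists and words were chosen with earlier results of these data known, except AGGAAGT, which was added later. All members were named. Comparisons are counts, shares and medians, with no test, since peaks are not replicates. A planned comparison of protein sequences was not analysed here, and 1 marker gene is not reported here.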

Additional observations from a re-analysis of the deposited data

How the results depend on the processing

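Of 76 values under another setting, 74 lay within 1.5 times the first count or within the 95% exact binomial interval of the first share. Some of the 74 could not have differed, as given below. That interval is wide with 8 promoters or 35 peaks, so shares inside it also moved. The settings were peaks of at least 2 or 4 subpeaks, genes up to 50 or 20 kb or holding the peak's centre, genes of every annotated kind, placement by any base of the peak, peaks within 1 kb counted as 1 site, narrower or wider gene ends, any overlap with a list, a shorter promoter stretch and the shorter PU.1 word. With the centre required inside the gene, the described Ms4a genes had 20 peaks in place of 35, since 15 centres lay outside the genes. Under that setting 7 of the 10 genes had a peak, in place of 9. With the shorter promoter stretch, the C/EBP word was in 4 of 8 genes in place of 7, the E-box in 2 in place of 5 and the RUNX word in 0 in place of 1. The shorter PU.1 word was in 2 of 8 genes, against 0 for the long one. The share of peaks at a gene end, 22.9%, ran from 17.1% with narrower to 34.3% with wider ends. Ms4a3 had 0 peaks and the lists held 0 of the peaks under every assignment setting run. Settings that only drop peaks, shorten the distance or add genes cannot raise a count of 0, so those agreements were fixed in advance. The limits of 50 and 20 kb could not change the 35 peaks either, since the farthest lay at 19524 bp.

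No paired analysis was possible because the deposited intervals carry no value per library. Leaving out each library in turn was not run for the same reason. The number of subpeaks counts calls and not reads, so depth, signal height and the library behind a call are unknown for every peak.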

Other observations

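The cluster also holds 10 RefSeq entries that are long non-coding RNA genes or pseudogenes, and 5 of them overlapped a merged peak. AW112010, a long non-coding RNA gene that inflammatory stimuli induce in mouse macrophages, lies before Ms4a8a at chr19:11047612-11050566 and overlapped 2 peaks, with 3 and 1 subpeaks. At least 1 library thus lacked a call at each. The long non-coding RNA gene 4930526L06Rik overlapped 12 peaks, 7 of them with 4 or more subpeaks, the Ms4a1 peaks among them.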
